A study of Bos taurus with 8 samples.

Results

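The glutathione peroxidases are described here as 7 genes taken by name (GPX1, GPX2, GPX3, GPX4, GPX5, GPX7 and GPX8) from a table of 30983 genes. All 7 are listed in the table, each under its own symbol. Each symbol matched 1 gene of RefSeq (assembly ARS-UCD2.0), from which the gene numbers given here were taken. The tissue was testis of Chinese Red Steppes cattle, a dual-purpose breed of northeast China. Mature testis came from 3 bulls slaughtered at 24 months, and immature testis from 3 calves castrated 1 day after birth. Each of the 6 animals gave 1 mRNA library, made with oligo(dT) selection, and no animal was treated, so age cannot be told apart from how the tissue was collected. Levels are given as CPM, a gene's counts per 1e+06 counts of its library, with the library total first multiplied by its TMM factor. Fold changes are mature over immature on a log2 scale with their standard error (SE), from edgeR's quasi-likelihood test. A gene was called at a Benjamini-Hochberg adjusted p under 0.05, taken over all genes tested, together with an absolute log2 fold change above 1.

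Glutathione peroxidases reduce hydrogen peroxide and lipid hydroperoxides, mostly at the expense of glutathione, a thiol tripeptide that is oxidized to its disulfide and reduced again by glutathione reductase. In mammals GPX1 to GPX4 are selenoproteins, with selenocysteine in the active site, whereas GPX5, GPX7 and GPX8 carry cysteine there. The testis is known for GPX4, which protects membrane phospholipids and which, in rodent sperm, turns into an insoluble structural protein of the mitochondrial sheath of the midpiece. GPX5 is a secreted form known from the epididymis, where it depends on androgens, and GPX7 and GPX8 belong to the endoplasmic reticulum, where they pass oxidizing power to protein disulfide isomerases.

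The libraries held 14139087 to 15846257 counts. Sertoli and Leydig cell markers were detected in all 6 libraries, and none of the listed markers of either type was at 0. Within the immature group, replicates 1 and 3 each had many genes of their own. In immature replicate 1, 194 genes at 5 CPM or more were over 3 times higher than in both other immature libraries, against 170 in immature replicate 3 and 21 in immature replicate 2. GPX5 was among the 194, and no other member was above that limit in either library.

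The family split in direction between the ages. Of the 6 members that could be tested, GPX4 was higher in mature testis, and GPX1, GPX3, GPX5, GPX7 and GPX8 were lower. GPX2 had too few counts for the test. Among all 19972 genes tested, 31.7% were called higher and 30.4% lower. Mature and immature libraries did not overlap for 6 of the 6 tested members, and this was so for 81.7% of all genes tested, so that a lack of overlap was common in these data. GPX5 passed the filter on low counts only through its immature libraries, and its call is therefore no support for the count of 5.

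**Figure D1:**
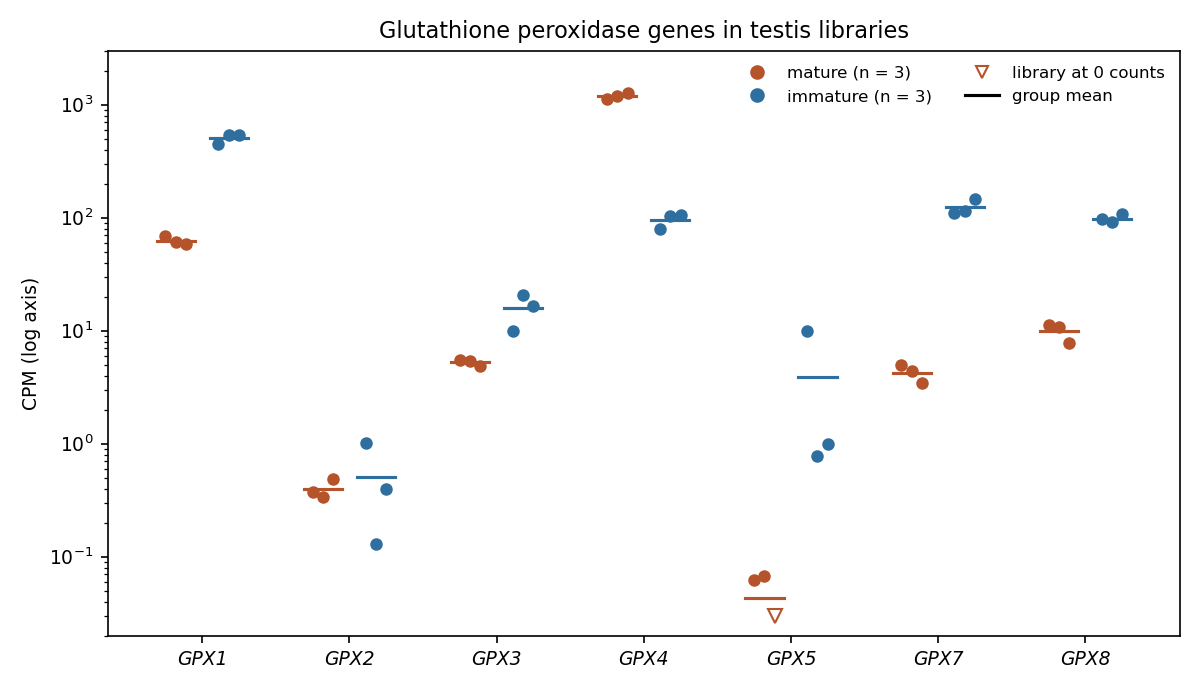
CPM of each member on a log axis, with 1 point per library, mature libraries left of immature ones and a bar at the group mean. GPX4 lay at 1113 to 1262 CPM in mature testis and 80.1 to 105 CPM in immature testis, GPX2 overlapped between the ages, and the remaining members lay lower in mature testis; the open triangle is the mature library with 0 counts of GPX5.

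GPX4 (gene 286809), the phospholipid hydroperoxidase, was the member that rose. It stood at 1113, 1197 and 1262 CPM in mature replicates 1, 2 and 3, against 80.1, 103 and 105 CPM in immature replicates 1, 2 and 3. Every mature library was thus far above every immature one, and the spread within either age was small beside the gap. The mean was 1191 ± 74.9 CPM in mature testis and 96.0 ± 13.8 CPM in immature testis (SD, n = 3 each), a 12.4-fold difference. This gave a log2 fold change of 3.63 (SE 0.14, adjusted p = 1.24e-07, edgeR's quasi-likelihood test). Many genes rose more: GPX4 ranked 2369 of 19972 from the largest rise. RefSeq lists 3 transcripts of GPX4, and in mammals the cytosolic, mitochondrial and nuclear forms of the protein come from this gene, so the gene count sums over forms that were not separated here.

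Markers of spermatids moved with GPX4. All 16 listed markers, among them protamines and transition proteins, were called higher, beside 31.7% of all genes tested. Several, such as SPACA3 and TNP1, passed the filter on low counts only through mature libraries, so the count of 16 is no support. Their summed level was 14496 to 21837 CPM in mature libraries and 90.6 to 93.0 CPM in immature libraries. Most of the immature sum came from ODF2 (74.9 ± 1.85 CPM). In tissue libraries such as these, a change in the share of a cell type and a change in RNA per cell cannot be told apart, and the part of cell composition in any value below was not tested. The genes closest to GPX4 over the 6 libraries, by the Euclidean distance between log2 CPM profiles centered on their own mean, were BHMG1 (distance 0.19), GSTT4, a theta-class glutathione S-transferase (0.20), and TPGS2, a subunit of the tubulin polyglutamylase complex (0.24). GSTT4 averaged 214 ± 19.2 CPM in mature testis and 16.0 ± 3.04 CPM in immature testis. Likeness over 6 libraries in 2 ages mostly reflects a fold of similar size.

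GPX1 (gene 281209), the soluble enzyme of the cytosol and the main consumer of hydrogen peroxide in the family, fell. Its level was 69.3, 60.9 and 57.9 CPM in mature replicates 1, 2 and 3, against 453, 538 and 535 CPM in immature replicates 1, 2 and 3. The ages were well separated, and the lowest immature library was immature replicate 1. The mean of 62.7 ± 5.91 CPM in mature testis and 508 ± 48.4 CPM in immature testis (SD, n = 3 each) gave a log2 fold change of −3.02 (SE 0.13, adjusted p = 1.81e-07, same test), or an 8.10-fold lower level. GPX1 is also expressed in red blood cells. HBB, the beta chain of hemoglobin, was at 0.626, 0.268 and 0.207 CPM in mature replicates 1, 2 and 3, against 60.6, 2.27 and 31.7 CPM in immature replicates 1, 2 and 3. HBB was thus higher in immature libraries too, and its part in the fall of GPX1 was not tested. The closest profiles were TTPAL (distance 0.13), PPIB, a peptidyl-prolyl isomerase of the endoplasmic reticulum (0.17), and FAM3C, a secreted protein (0.19).

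GPX3 (gene 281210), the secreted enzyme of plasma and extracellular fluid, also fell, by less. It was at 5.51, 5.43 and 4.83 CPM in mature replicates 1, 2 and 3, against 9.91, 20.8 and 16.6 CPM in immature replicates 1, 2 and 3. The mature libraries were close to each other, while the immature ones were spread over a range in which immature replicate 1 was lowest, still above every mature library. The fitted log2 fold change reached −1.58 (SE 0.28, adjusted p = 0.00085, edgeR's quasi-likelihood test). The genes closest in profile were CCDC3, a secreted protein (distance 0.25), MMRN1, or multimerin, a protein of platelets and endothelium (0.26), and OSR1, a transcription factor of mesenchyme (0.27). All 9 endothelial markers were called lower, beside 30.4% of all genes tested. Their summed level was 70.3 to 84.7 CPM in mature libraries and 354, 440 and 556 CPM in immature replicates 1, 2 and 3. GPX3 itself was highest in immature replicate 2, and the part of endothelium in its level was not tested.

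Both members of the endoplasmic reticulum were lower in mature testis. GPX7 (gene 523311) was at 4.95, 4.36 and 3.45 CPM in mature replicates 1, 2 and 3, against 111, 114 and 146 CPM in immature replicates 1, 2 and 3. Its mean was 4.25 ± 0.756 CPM in mature testis and 123 ± 19.3 CPM in immature testis (SD, n = 3 each). The log2 fold change of −4.85 (SE 0.19, adjusted p = 1.36e-07, edgeR's quasi-likelihood test), a 28.9-fold lower level, ranked 153 of 19972 from the largest fall. The closest profiles were those of RPL10, a ribosomal protein (distance 0.23), COL27A1, a fibrillar collagen chain (0.36), and R3HDML (0.40). A gene listed as a GPX7 pseudogene, LOC786669, had 0 counts in each mature library and 1, 0 and 1 counts in immature replicates 1, 2 and 3, which is small beside the counts of GPX7.

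GPX8 (gene 511575) was at 11.3, 10.8 and 7.72 CPM in mature replicates 1, 2 and 3, against 96.8, 90.8 and 107 CPM in immature replicates 1, 2 and 3. Its log2 fold change came to −3.30 (SE 0.17, adjusted p = 6.11e-07, same test), and the ages did not come near each other. RHOJ, a GTPase of endothelium (distance 0.13), EIF2S3, a subunit of translation initiation factor 2 (0.13), and ITGA7, an integrin that binds laminin (0.19), had the closest profiles. In RefSeq GPX8 overlaps CDC20B, a CDC20-like gene, and the strand setting of the counting was not stated, so that reads of the overlap could belong to either. CDC20B went the other way, with 155, 100 and 105 counts in mature replicates 1, 2 and 3, against 2, 4 and 1 counts in immature replicates 1, 2 and 3. Between the ages the fall was deeper for GPX7 than for GPX8. The log2 ratio of GPX7 to GPX8 counts, taken within each library, was −1.22 ± 0.08 in mature testis and 0.32 ± 0.13 in immature testis (SD, n = 3 each). In an exact two-sided permutation test over libraries this gave p = 0.10, the smallest p that 3 against 3 libraries allow; the pair was chosen after its values were seen.

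**Figure D2:**
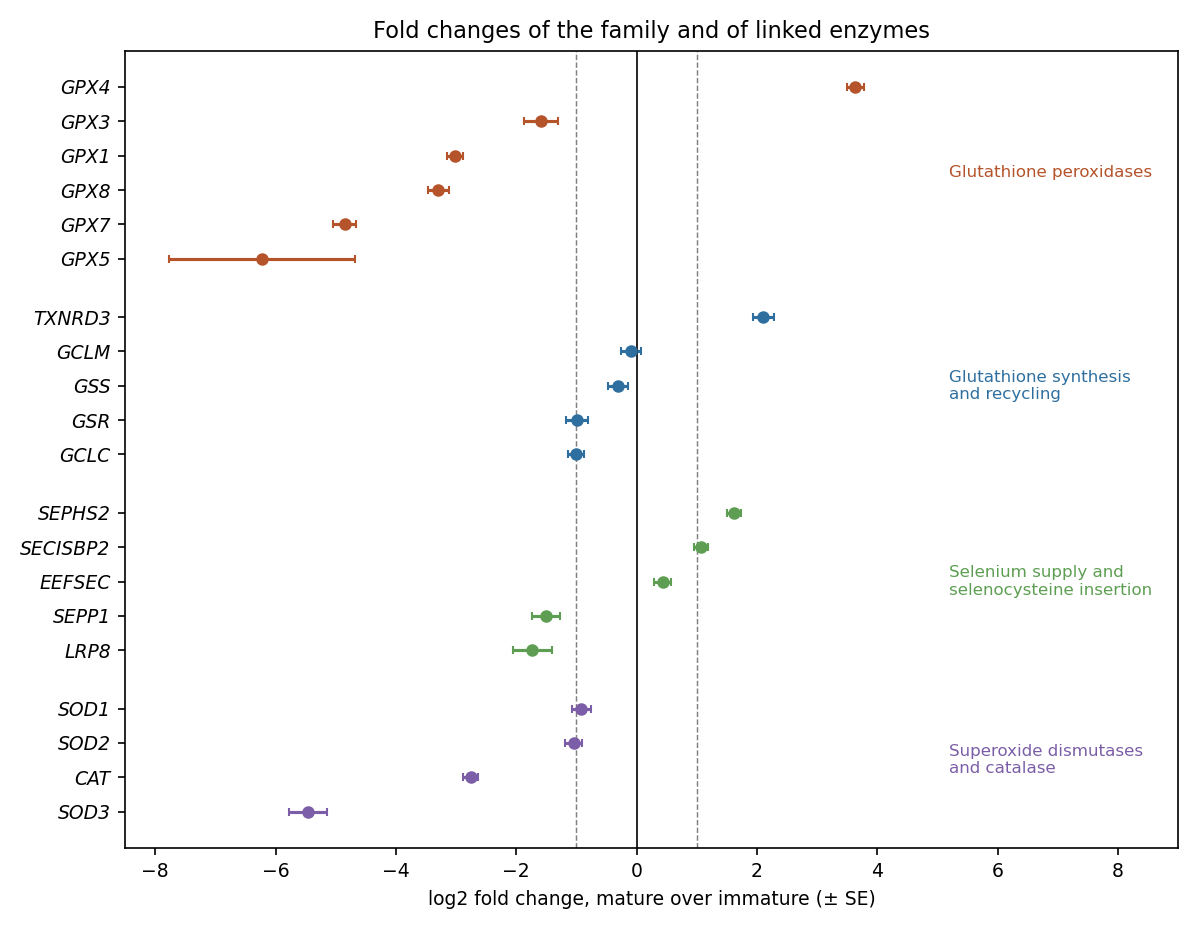
Log2 fold change, mature over immature, with the SE as bars, for the 6 tested members and for enzymes that supply, recycle or act beside them. Dashed lines mark the fold threshold of 1; GPX4 at 3.63 lies right of it with TXNRD3, SEPHS2 and SECISBP2, while the remaining members lie between −6.23 and −1.58 and SOD3 at −5.46.

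GPX5 (gene 525988), the epididymal form, was close to absent from mature testis and was carried in immature testis mainly by 1 library. It had 1, 1 and 0 counts in mature replicates 1, 2 and 3, against 149, 12 and 15 counts in immature replicates 1, 2 and 3. These correspond to 0.0626, 0.0671 and 0 CPM in mature replicates 1, 2 and 3, and to 9.98, 0.778 and 0.993 CPM in immature replicates 1, 2 and 3. The 0 in mature replicate 3 allows a level of up to 0.207 CPM (3 counts). All immature libraries were above the mature ones, and immature replicate 1 was far above the rest of its own group. With 2 counts in the mature group, the log2 ratio of summed counts was −6.46 (95% exact counting interval −9.51 to −4.58), and without immature replicate 1 it was −4.33 (95% exact counting interval −7.44 to −2.33). The intervals cover counting error only. GPX5 was called lower by edgeR's quasi-likelihood test (adjusted p = 0.00756), also without immature replicate 1 (log2 fold change −4.11, adjusted p = 0.00109), but it could not be tested under a filter of 1 CPM in 3 libraries.

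Other genes were high in the same library, among them some of the male tract. Of 19 genes on a list of epididymal markers, 17 had immature counts, and 13 of these were highest in immature replicate 1, against 4 in immature replicate 2 and 0 in immature replicate 3. Being highest there was not particular to that list, since 9 of 10 leukocyte markers and 8 of 16 spermatid markers were also highest in immature replicate 1. There, 0 markers of spermatids, Leydig cells, muscle, endothelium, leukocytes or erythroid cells were over 3 times higher than in both other immature libraries. For Sertoli cells it was 1 marker. Of the epididymal list, 5 genes were over 3 times higher in immature replicate 1 than in both other immature libraries: WFDC8, WFDC9 and WFDC10A, which encode whey acidic protein domains, ELSPBP1, a sperm-binding protein of epididymal fluid, and ADAM7, a membrane protein of the epididymis. WFDC9, for instance, had 97, 1 and 1 counts in immature replicates 1, 2 and 3. WFDC8 had 20, 1 and 0 counts in the same libraries and ADAM7 had 10, 1 and 0, and both were too low to test. The summed level of the list was 56.3, 18.6 and 19.5 CPM in immature replicates 1, 2 and 3, and 197 to 227 CPM in mature libraries. The mature sum came mostly from DEFB119 (120 ± 7.85 CPM) and CST8 (26.9 ± 3.29 CPM), which the testis itself also expresses, and RNASE9, an epididymal ribonuclease, was at 0 in all 6 libraries. Between the ages the list mostly went the other way from GPX5. Of 13 tested, 8 were called higher in mature testis and 2 lower, beside 31.7% and 30.4% of all genes tested. The 2 were LCN6, with 182, 141 and 91 counts in immature replicates 1, 2 and 3, and RNASE10, with 205, 61 and 151. In mature replicates 1, 2 and 3 LCN6 had 26, 8 and 16 counts and RNASE10 had 17, 15 and 21. Some of the 8, such as CST11, passed the filter on low counts only through mature libraries, and LCN6 passed it only through immature libraries. WFDC10A, ELSPBP1 and WFDC9 averaged higher in mature than in immature testis, and WFDC8 and ADAM7 lower.

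The genes closest to GPX5 in profile were HOXA4, a homeobox gene of body patterning (distance 0.83), KRT19, a keratin of simple and ductal epithelia (0.88), and PAX2, a transcription factor of the kidney and of the ducts that form the male tract (1.04). PAX2 had 20, 17 and 7 counts in mature replicates 1, 2 and 3, against 941, 66 and 48 counts in immature replicates 1, 2 and 3. These distances were longer than those of any other member, and a peak in immature replicate 1 came with the choice of genes close to GPX5. Whether tissue beside the testis was present in immature replicate 1, and its part in the level of GPX5, was not tested.

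**Figure D3:**
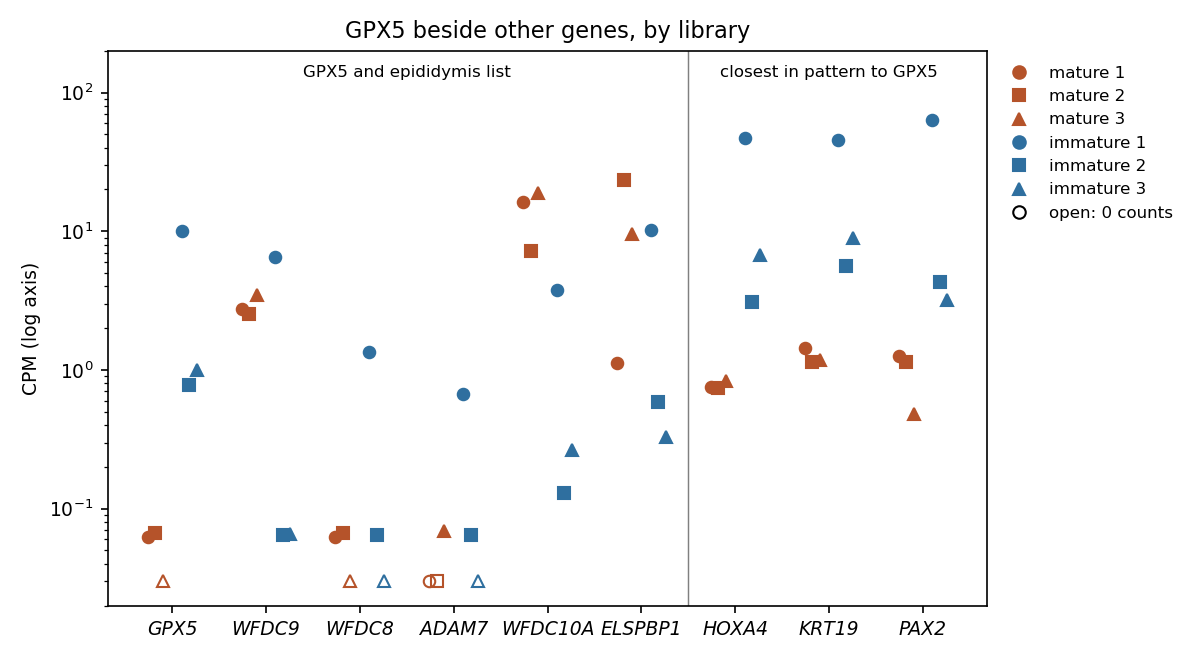
CPM per library on a log axis for GPX5, for the 5 epididymal list genes over 3 times higher in immature replicate 1 than in both other immature libraries, and for the 3 genes closest to GPX5 in profile; symbols mark replicates and open symbols mark 0 counts. Immature replicate 1 is the highest immature library for each gene shown, which the choice of all 8 genes beside GPX5 fixed, with GPX5 at 9.98 CPM there and 0.778 and 0.993 CPM in immature replicates 2 and 3.

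GPX2 (gene 533088), the form of gut epithelium, was near the limit of detection at either age. It had 6, 5 and 7 counts in mature replicates 1, 2 and 3, against 15, 2 and 6 counts in immature replicates 1, 2 and 3. The immature counts enclosed the mature ones, so the ages overlapped. Without the filter on low counts, the fit gave a log2 fold change of −0.29 (SE 0.69, adjusted p = 0.731, edgeR's quasi-likelihood test). The ratio of summed counts, immature over mature, was 1.27 (95% exact counting interval 0.658 to 2.51), and it changed direction to 0.66 without immature replicate 1. A difference was not detectable at this depth.

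Added together, the 7 genes made up 0.121% to 0.126% of the counts of a mature library and 0.0803% to 0.0897% of those of an immature library. Their summed level was 1204, 1279 and 1337 CPM in mature replicates 1, 2 and 3, against 761, 867 and 911 CPM in immature replicates 1, 2 and 3, which is 1.504-fold higher in mature testis. Without GPX4 the sum was 82.6 ± 8.60 CPM in mature testis and 750 ± 63.8 CPM in immature testis (SD, n = 3 each), 9.08-fold lower in mature testis. Each of these sums gave p = 0.10 in the exact two-sided permutation test, the smallest p possible with 3 against 3 libraries.

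The division of these counts within a library, which does not depend on the scaling between libraries, turned over. GPX4 held 92.4%, 93.6% and 94.4% of the family's counts in mature replicates 1, 2 and 3, against 10.5%, 11.9% and 11.5% in immature replicates 1, 2 and 3. GPX1 held 4.95% ± 0.730 in mature testis and 60.1% ± 1.70 in immature testis (SD, n = 3 each). GPX7 held 0.337% ± 0.0765 in mature testis and 14.6% ± 1.40 in immature testis. GPX8 held 0.788% ± 0.188 in mature testis and 11.6% ± 1.13 in immature testis. The groups did not overlap for 6 of the 7 shares, each at p = 0.10 in the exact permutation test (0.117 after adjustment over 7 comparisons), and GPX2 gave p = 0.60. These are shares of counts, not of molecules, since a longer transcript gives more counts and lengths were not used here. A share also moves when any other member moves.

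**Figure D4:**
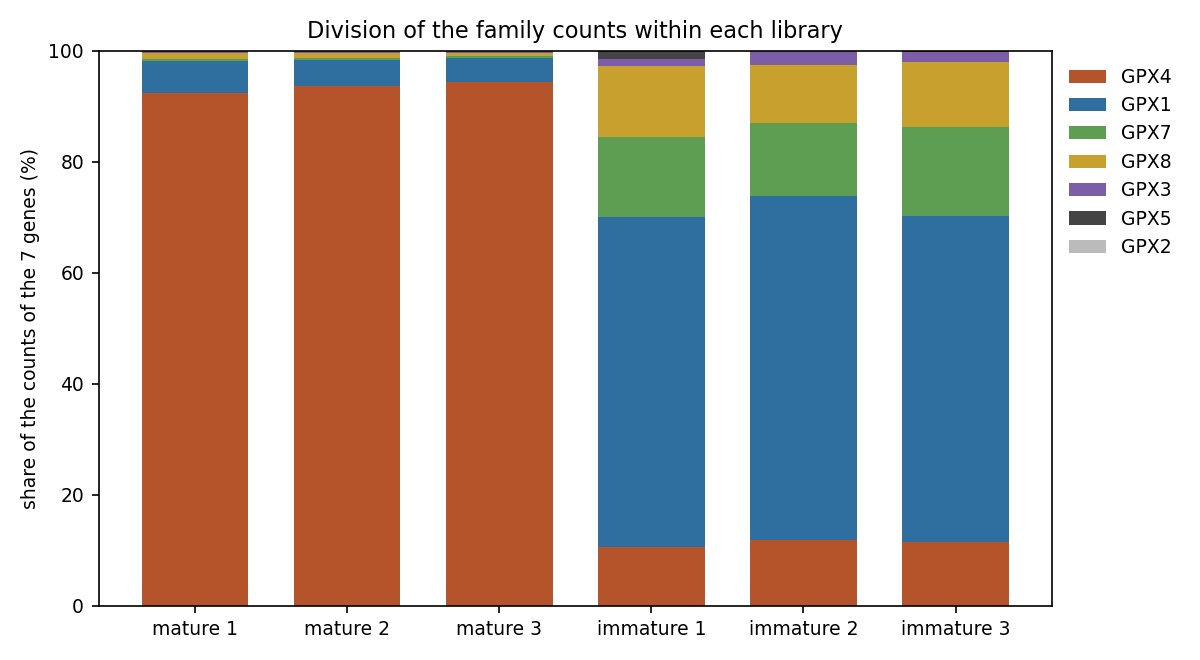
Share of the counts of the 7 genes, in percent, taken by each gene in each library, mature libraries left of immature ones. GPX4 fills 92.4% to 94.4% of a mature bar, and GPX1 fills 58.8% to 62.0% of an immature bar, with GPX7 and GPX8 next to it.

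Glutathione itself is made by glutamate-cysteine ligase (GCLC and GCLM) and glutathione synthetase (GSS). Of 19 tested genes of glutathione synthesis and turnover, 5 passed the test as higher in mature testis and 7 as lower, and the median log2 fold change was −0.30 beside −0.04 over all genes tested. Since 31.7% of all genes were called higher and 30.4% lower, these counts, like those of the glutathione S-transferases, selenium genes, other selenoproteins and lipid peroxidation genes below, lie near what was found over all genes and are no result about the lists. GCLC, the catalytic subunit, was at the edge of the fold threshold (−1.002, SE 0.13), and its call was lost in several settings given below. GCLM (−0.09, SE 0.17) and GSS (−0.30, SE 0.17) were not called. GSR, the reductase that restores glutathione, averaged 15.3 ± 2.36 CPM in mature testis and 30.5 ± 4.63 CPM in immature testis and just missed the fold threshold (−0.99, SE 0.18). TXNRD3, a selenoprotein with thioredoxin and glutathione reductase activity that is known from mouse spermatids, rose (77.5 ± 7.29 CPM in mature testis and 18.03 ± 3.55 CPM in immature testis, log2 fold change 2.10, SE 0.17). GLRX2, a mitochondrial glutaredoxin, rose most in this list (3.32, SE 0.17), beside OPLAH, which opens the ring of 5-oxoproline (2.38, SE 0.18), and SLC7A11, the cystine carrier (2.11, SE 0.28). The gamma-glutamyltransferases GGT1 (−2.65, SE 0.26) and GGT5 (−2.60, SE 0.23), which break glutathione down outside the cell, fell, as did CHAC1, a cytosolic glutathione-degrading enzyme (−3.30, SE 1.03), which was at 1.07, 1.23 and 10.3 CPM in immature replicates 1, 2 and 3. CHAC1 had 10, 4 and 5 counts in mature replicates 1, 2 and 3. It passed the filter on low counts only through immature libraries, so its call is no support for the count of 7. Without immature replicate 3 the log2 fold change of CHAC1 was −1.45, and its call was lost in limma-voom and without mature replicate 2 or 3.

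The supply of selenocysteine bears on GPX1 to GPX4. Of 17 tested genes of selenocysteine insertion and selenium supply, 4 were called higher and 6 lower, with a median log2 fold change of −0.40. The count called higher ran between 2 and 7 over the alternative settings. SEPHS2, which makes selenophosphate, averaged 94.6 ± 5.45 CPM in mature testis and 30.8 ± 2.35 CPM in immature testis (log2 fold change 1.62, SE 0.12, adjusted p = 3.79e-06, edgeR's quasi-likelihood test). PSTK, which phosphorylates the serine on the selenocysteine tRNA (1.44, SE 0.22), was closer to the threshold. So were TRNAU1AP, which binds that tRNA (1.12, SE 0.14), and SECISBP2, which binds the selenocysteine insertion element of the mRNA (1.07, SE 0.12). The calls of TRNAU1AP and SECISBP2 were lost under upper-quartile factors and with glmTreat. SECISBP2 also lost its call with library totals only (0.9998). EEFSEC, the elongation factor for selenocysteine, was not called (0.43, SE 0.14). SEPP1, or selenoprotein P, the carrier of selenium between tissues, fell (201 ± 47.7 CPM in mature testis and 571 ± 145 CPM in immature testis, log2 fold change −1.50, SE 0.23), and so did LRP8, its receptor in mouse testis (−1.73, SE 0.32). The ribosomal protein RPL30, which also binds the insertion element (−2.69, SE 0.13), and SELENBP1, a selenium-binding protein (−2.44, SE 0.22), fell most. SECISBP2L and SEPHS1, relatives of SECISBP2 and SEPHS2, made up the rest of the 6.

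Of 18 other selenoproteins tested, 5 were higher (3 to 6 over the settings) and 7 lower, with a median of −0.10; SEPHS2, TXNRD3 and SEPP1 are counted here as well. SELV, known as a testis-enriched selenoprotein, had the largest rise (288 ± 45.4 CPM in mature testis and 0.831 ± 0.402 CPM in immature testis, log2 fold change 8.41, SE 0.28). SEPN1, a selenoprotein of the endoplasmic reticulum (−3.26, SE 0.15), DIO3, a deiodinase that inactivates thyroid hormone (−2.36, SE 0.33), and SELO (−2.12, SE 0.13) fell most. SELV, with 9, 20 and 9 counts in immature replicates 1, 2 and 3, passed the filter on low counts only through mature libraries. DIO3, with 9, 14 and 11 counts in mature replicates 1, 2 and 3, passed it only through immature libraries. Their calls are no support for the counts of 5 and 7. GPX4 and TXNRD3 were thus higher in mature testis while GPX1, GPX3 and SEPP1 were lower, so selenoproteins of either direction stood side by side.

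The enzymes that produce or compete for hydrogen peroxide were lower or not called. Of 4 tested, 0 were called higher and 3 lower, beside 31.7% higher and 30.4% lower among all genes tested. SOD3, the extracellular superoxide dismutase, averaged 21.7 ± 4.78 CPM in mature testis and 958 ± 326 CPM in immature testis (log2 fold change −5.46, SE 0.31, adjusted p = 2.04e-06, edgeR's quasi-likelihood test). CAT, catalase, was at 23.1 ± 2.92 CPM in mature testis and 156 ± 0.865 CPM in immature testis (−2.76, SE 0.13). SOD2, the mitochondrial form, was near the threshold (−1.04, SE 0.14) and lost its call in several settings, and SOD1, the cytosolic form, was not called (−0.92, SE 0.16).

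Glutathione S-transferases share the substrate glutathione with the peroxidases, and of 20 tested 5 were higher and 8 lower, with a median of 0.20. GSTT2 (6.79, SE 0.40), GSTA5 (5.97, SE 0.65) and GSTO2 (5.88, SE 0.27) rose most, and MGST2 (−3.83, SE 0.26), MGST3 (−2.92, SE 0.15) and GSTM2 (−2.75, SE 0.12) fell most. GSTT2 had 13, 6 and 25 counts in immature replicates 1, 2 and 3. It passed the filter on low counts only through mature libraries, so its call is no support for the count of 5. MGST2 and MGST3 are membrane-bound enzymes with peroxidase activity of their own. Members of this class are close in sequence, and the handling of shared reads was not stated, which leaves their counts uncertain.

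Of 18 tested partners of GPX7 and GPX8 in disulfide formation, 7 were lower and 2 higher, with a median of −0.95. Among all genes tested 30.4% were called lower and 31.7% higher. The count of 7 lies near that share and is no result about the list. PDIA4, a protein disulfide isomerase, fell (84.6 ± 7.36 CPM in mature testis and 581 ± 122 CPM in immature testis, log2 fold change −2.78, SE 0.17), and PDIA2 had 0 counts in each mature library and 6.56 ± 3.67 CPM in immature testis. The 2 that rose were PDILT, a testis-restricted relative of the isomerases (119 ± 3.60 CPM in mature testis and 0.0880 ± 0.0384 CPM in immature testis), and ERO1B, an oxidase of the endoplasmic reticulum (3.28, SE 0.12). Its relative ERO1A fell (−1.93, SE 0.29). PDIA2 and PDILT passed the filter on low counts only through the age where they were high, so their calls are no support for these counts.

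Lipid peroxidation is the process that GPX4 holds in check, and of 23 tested genes of it and of iron handling 6 were higher and 7 lower, with a median of −0.40. CISD1, an iron-sulfur protein of the outer mitochondrial membrane (4.14, SE 0.20), and the lipoxygenases ALOX12 (3.48, SE 0.25) and ALOX5 (2.89, SE 0.25), which oxidize polyunsaturated fatty acids, rose. SAT1, a polyamine acetyltransferase (−2.90, SE 0.23), and HMOX1, which degrades heme (−1.83, SE 0.36), fell. Of 18 genes of the NRF2 system, which induces many glutathione enzymes, 1 was higher and 9 were lower, with a median of −1.04. The shares over all genes tested were 31.7% higher and 30.4% lower, with a median of −0.04. The 1 that rose was KEAP1, the inhibitor of NRF2 (1.06, SE 0.13), which lost its call under upper-quartile factors (0.85), with library totals only (0.99) and with glmTreat, leaving 0 higher. ABCC1, a glutathione conjugate exporter (−2.50, SE 0.13), BACH1, a repressor of the same elements (−2.43, SE 0.27), and TKT, a transketolase (−2.24, SE 0.12), fell most.

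Somatic markers of several types were lower in mature testis, as GPX1, GPX3, GPX7 and GPX8 were. For comparison, 30.4% of all genes tested were called lower and 31.7% higher. Of 12 Sertoli cell markers 9 were called lower and 2 higher, with a summed level of 1791 to 1980 CPM in mature libraries and 10083 to 13562 CPM in immature libraries. Of 8 markers of peritubular and vascular muscle, 6 were lower (672 to 691 CPM in mature libraries and 1826 to 2990 CPM in immature libraries), and of 10 leukocyte markers 8 were lower and 2 higher (396 to 478 CPM in mature libraries and 606 to 1339 CPM in immature libraries). The Leydig cell list had 3 of 8 lower, near the share over all genes, and 1 higher. Its sum overlapped between the ages (1547 to 2892 CPM in mature libraries and 1910 to 3100 CPM in immature libraries). Of the 11 erythroid genes 5 could be tested. HBB was lower, and the 4 called higher included HEMGN (441 ± 105 CPM in mature testis and 1.12 ± 0.308 CPM in immature testis), while the alpha-globin genes HBA (0, 0 and 1 counts in mature replicates 1, 2 and 3, against 13, 0 and 14 counts in immature replicates 1, 2 and 3) and HBA1 were too low to test.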

How the data were processed

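The authors deposited unnormalized read counts for each gene in 6 mRNA libraries. Per the study's methods, Fast-QC served for read quality and Hisat2 for alignment to Btau_5.0.1. For the Hisat2 version, counter, strand setting and annotation, nothing was stated in the sources used. The study's miRNA counts and comparison tables (group signals, fold changes and FDR) were not used, and 0 data columns of the gene table were left out. RefSeq came from another assembly and served for gene numbers and overlaps, with no coordinates.

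Counts were fitted in R 4.3.3 with edgeR 4.0.16 (filterByExpr, TMM, robust glmQLFit and glmQLFTest). Of 30983 genes, 28656 had a count and 19972 were tested. Each SE was taken as the absolute log2 fold change divided by the square root of F. Alternatives used limma 3.58.1 and DESeq2 1.42.0; summaries used Python 3.11.15, pandas 2.3.3 and scipy 1.17.1. Scripts were tested on simulated data. Within an age, library pairs differed beyond counting error (chi-square per degree of freedom 9.60 to 38.8).

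Members and gene lists were chosen with earlier results of these data known. Named genes are all members, at most 3 called genes per list and direction, enzymes fixed by name, and the 3 nearest profiles per tested member (symbols other than LOC). Genes outside this rule (HBB, HEMGN, HBA, HBA1, CDC20B, SECISBP2L, SEPHS1, LOC786669, GPX6 and the epididymal genes beside GPX5) were named after their values were seen. The values of 1 other gene that the rule names are not reported here.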

Additional observations from a re-analysis of the deposited data

How the results depend on the processing

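The calls of GPX1, GPX3, GPX4, GPX7 and GPX8 were the same in all 17 alternative settings, with log2 fold changes of −3.22 to −2.91, −1.84 to −1.34, 3.43 to 3.74, −5.06 to −4.67 and −3.50 to −3.09 in that order. The setting without a fold threshold reused the main fit, so no called gene could lose its call there. GPX5 was called lower in all 16 settings that could test it, at −6.72 to −4.11, with −4.11 without immature replicate 1 and −4.87 in limma-voom; under the filter of 1 CPM in 3 libraries it was not tested and 4 members were called lower. Upper-quartile factors moved the median of all genes to −0.24, against −0.04. The replicate numbers did not pair the libraries (correlation of deviations −0.03 to −0.01 for equal numbers), and with a replicate block 6337 genes were called higher and 5982 lower, with the same 6 members called. Of 67 other named genes 57 kept their call in every setting. GCLC lost it under RLE factors (−0.91), in DESeq2 (−0.91) and in 6 other settings, and SOD2 under RLE factors (−0.95) among others. SECISBP2, TRNAU1AP and KEAP1 lost it under upper-quartile factors (0.86, 0.92 and 0.85) and with glmTreat. SECISBP2 and KEAP1 also lost it with library totals only (0.9998 and 0.99). GSR was called under upper-quartile factors (−1.20), as was SOD1 (−1.12). CHAC1 and PAX2 were lost in limma-voom (adjusted p = 0.0614 and 0.0877) among others. These causes were not tested. Family shares per kilobase were not run, as transcript lengths were not used here.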

Other observations

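GPX6, a family gene of olfactory tissue that is not among the 7 described above, was read after its values were seen. It had 15, 7 and 6 counts in mature replicates 1, 2 and 3, against 112, 103 and 77 counts in immature replicates 1, 2 and 3. It had a log2 fold change of −3.37 (SE 0.38, adjusted p = 5.5e-05, edgeR's quasi-likelihood test), so it was called lower. With under 1 CPM in each mature library, GPX6, like GPX5, passed the filter on low counts through its immature libraries, and its call adds nothing to the count of members called lower. Unlike GPX5, GPX6 was at similar levels in all immature libraries (7.50, 6.67 and 5.1 CPM in immature replicates 1, 2 and 3), and it was not over 3 times higher in immature replicate 1.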
